A study of Rattus norvegicus with 10 samples.

Results

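The ventral tegmental area (VTA) of the rat brain was set against 4 forebrain regions on oligonucleotide arrays. The VTA group held 2 arrays, 1 of a cocaine and 1 of a saline sample, and the forebrain group held 8 arrays, 1 of each treatment from the amygdala, caudate putamen, nucleus accumbens and prefrontal cortex, so that all 10 arrays of the series entered. Cocaine is a psychostimulant that blocks dopamine reuptake. The cocaine dose, its route and timing, the strain, sex and age of the rats and the number of animals behind a sample were not stated in the available labels. No label tells if the samples are of different animals, so the p-values measure only the spread between these samples, which may be technical. With 1 array of each region and treatment, that spread also holds any difference between regions in their response to cocaine. Probe sets were taken as members by their order on the arrays: both VTA values above all 8 forebrain values, or both below.

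The VTA is a midbrain nucleus that holds dopamine neurons, GABA neurons and glutamate neurons, and it is crossed by fibre tracts. Its dopamine axons reach the nucleus accumbens, amygdala and prefrontal cortex, while the caudate putamen is served mainly by the neighbouring substantia nigra. Forebrain regions are rich in spiny neurons, whose dendritic spines concentrate calmodulin-dependent enzymes, protein kinase C and second messenger phosphodiesterases.

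The values are expression indices, model-based summaries of the brightness of all probes of a probe set. Array medians lay between 2208 and 2309, and 593 values listed at 0 were treated as missing, of which 120 were on the VTA cocaine array, 40 on the VTA saline array and 226 on the prefrontal cortex cocaine array. The median absolute log2 difference between the arrays of a region was 0.127 in the VTA, 0.190 in the amygdala, 0.184 in the prefrontal cortex, 0.0902 in the nucleus accumbens and 0.0780 in the caudate putamen. Of 4894 tested probe sets that had values above 0 on each of the 10 arrays, 646 (13.2%) lay above and 234 (4.78%) lay below all forebrain arrays. These counts were 516 above and 311 below with median scaling, and 464 and 405 with quantile normalization. In limma's fit on the log2 index, 410 of 5232 probe sets (7.84%) were higher and 169 (3.23%) lower in the VTA than in the mean of the 4 forebrain regions at an adjusted p under 0.05, and 86 of these differed at least 2-fold. The split leaned less to higher probe sets with median scaling, at 291 higher and 173 lower, and with quantile normalization, at 228 higher and 190 lower. The 579 calls came to 118 without the VTA cocaine array and 172 without the VTA saline array, where the remaining VTA array was assumed to vary like the other regions. They came to 295 and 317 without the cocaine or the saline array of the caudate putamen, 347 and 321 without those of the nucleus accumbens and 946 without the cocaine array of the amygdala. With the VTA cocaine array left out, 1004 probe sets lay above and 602 below, and with the VTA saline array left out, 992 and 529.

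**Figure D1:**
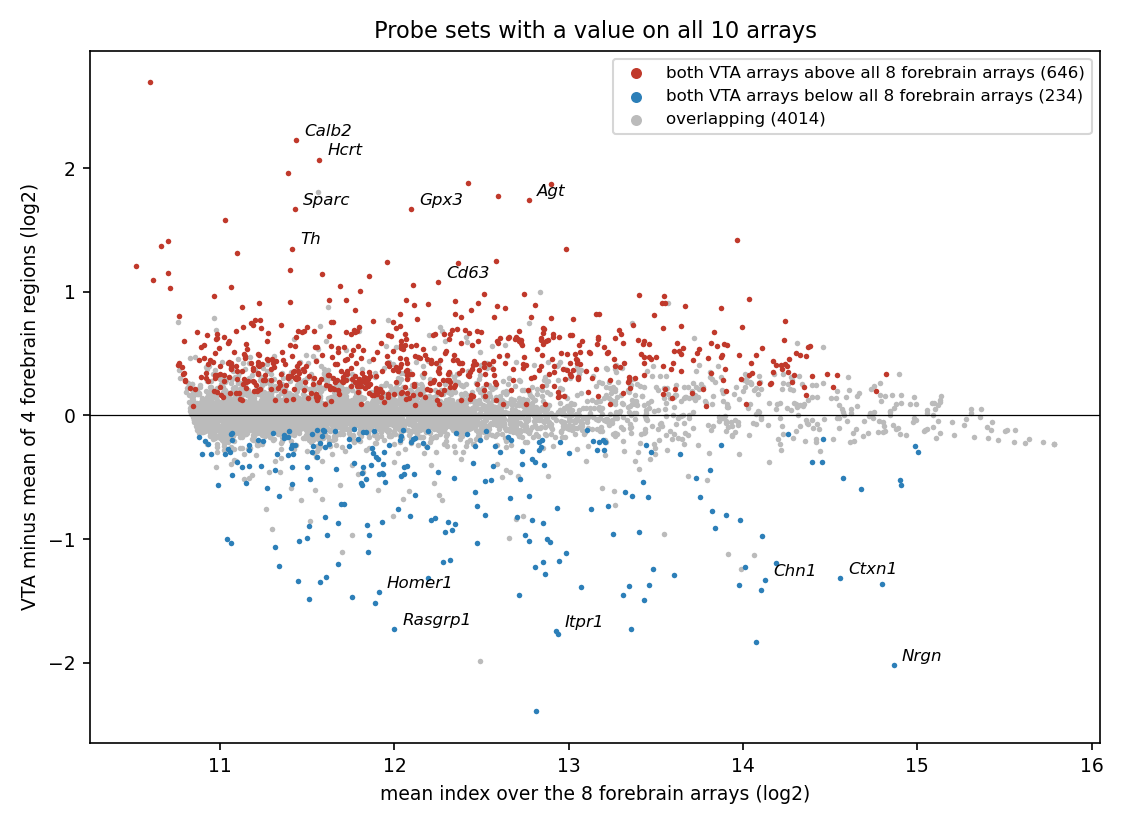
Each point is a tested probe set measured on each of the 10 arrays. The x axis gives the mean expression index over the 8 forebrain arrays (log2) and the y axis the VTA level minus the mean of the 4 forebrain regions (log2). Red points (646) had both VTA arrays above all forebrain arrays, blue points (234) had both below, and grey points overlapped. Named genes stand right of their points.

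Most gaps were narrow. The gap is the distance from the VTA value nearest the forebrain to the forebrain value nearest the VTA. Its median was 0.12 on the log2 scale above and 0.13 below. Above, 7 probe sets had a gap of at least 2-fold and 289 a gap under 0.1 on the log2 scale, and below these counts were 9 and 103. The 646 probe sets above included 551 with 1 gene symbol, which stand for 450 genes, and the 234 below included 212, for 168 genes. Of the probe sets above, 350 were among the 410 higher calls, and of those below, 139 were among the 169 lower calls, though both counts rest on the same arrays. The prefrontal cortex held the forebrain array farthest from the VTA for 355 of the 646 probe sets above and the nearest for 74. The saline array was the higher of the VTA pair for 368 of the 646 above and 123 of the 234 below. Of 749 genes with several complete probe sets, 181 had at least 1 above and 66 had all above, 68 had at least 1 below and 23 had all below, and only Slc22a7 had probe sets on both sides.

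The label was checked against the markers of the region. Th, tyrosine hydroxylase, which sets the pace of dopamine synthesis, had an index of 7544 and 6363 on the VTA cocaine and saline arrays, against 2599, 2705 and 2884 as the lowest, median and highest of the forebrain arrays. The forebrain values of Th spanned a narrow range and both VTA values lay clear of it, at 2.55-fold in limma's fit (adjusted p = 0.000133). Aldh1a1, which oxidises retinal and dopamine aldehydes in a subset of dopamine neurons, had 6519 and 4477 in the VTA, against 1909.7, 2087 and 2669 in the forebrain (adjusted p = 0.00302), a call that ended without the VTA cocaine array (adjusted p = 0.0679). Ddc, the next enzyme of dopamine synthesis, lay above all forebrain arrays at 5296 and 3809 against 2434 to 3578 but did not pass (adjusted p = 0.0541). The dopamine transporter gene Slc6a3 had 4552 and 3268 against 2977 to 3756, and its groups overlapped. A dimmer Slc6a3 probe set had 2316 on the VTA saline array against 1319 to 1751 in the forebrain, but its VTA cocaine value was missing. Of 9 measured dopamine neuron genes, Th and Aldh1a1 were higher, Drd2 was lower and 6 did not pass, with a median log2 difference of 0.07 against 0.02 over all 3093 genes. Of all genes, 6.98% were higher and 3.3% lower in the fit, and 12.3% lay above and 4.82% below all forebrain arrays. Drd2 had 2190 and 1996 in the VTA, within the forebrain range of 1727 to 5405. The prefrontal cortex had 2355 and 1727 and the caudate putamen 4977 and 5405 on the cocaine and saline arrays. With arrays put in 2 classes, VTA and forebrain, the Drd2 call ended (limma adjusted p = 0.539). The Drd2 call ended without either VTA array, without either caudate putamen array and without the saline array of the nucleus accumbens. The probe sets of the vesicular transporter Slc18a2 lay under the filter on low values and were not tested, at 1476 and 1131 in the VTA against 592 to 1086 in the forebrain on one, and 669 and 488 against 157 to 256 on the other.

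Hypothalamic peptide genes were measured beside the dopamine markers. Hcrt, the orexin precursor of lateral hypothalamic neurons, had 6808 and 23627 on the VTA cocaine and saline arrays, against 2738, 2874 and 3619.7 in the forebrain. Both VTA values of Hcrt exceeded the forebrain, but they differed from each other by more than the whole forebrain range. Its difference was 2.07 ± 0.34 on the log2 scale (SE, limma adjusted p = 0.00793). Among 10 measured hypothalamic peptide genes, Hcrt and Cartpt were higher, none was lower and 8 did not pass. The summed index of the 10 was 39744 and 61962 in the VTA against 29589 to 35876 in the forebrain. That sum includes Hcrt and Cartpt, and the list's median log2 difference was 0.10 against 0.02 over all genes. Cartpt, the precursor of a peptide that the nucleus accumbens also makes, had 6627 and 10588 in the VTA and 1446, 1701 and 7116 in the forebrain. The nucleus accumbens held its highest forebrain values, above the VTA cocaine array, and its call ended with arrays in 2 classes (limma adjusted p = 0.160). Pmch, the melanin-concentrating hormone precursor made by neighbours of orexin neurons, was listed at 0 on both VTA arrays. Zeros were taken as missing, so its VTA level is not known, and the forebrain arrays had 1124 to 1259. Pomc had 2803 and 2830.1 in the VTA against 1908 to 2689.9 in the forebrain without passing (adjusted p = 0.151). Adcyap1 was counted among the 8 by its brightest probe set, at 4388.5 and 4211 in the VTA against 3122 to 4505 in the forebrain. A dimmer Adcyap1 probe set had both VTA arrays above the forebrain, at 1452 and 1672 against 214 to 628. A further Adcyap1 probe set overlapped, at 4489 and 3538 against 2501 to 3973. Neither of these other probe sets entered the list's counts. The part of hypothalamic tissue in the other results was not tested. In bulk tissue, fewer cells of a type and less RNA per cell cannot be told apart.

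Promoter windows are shown for Th and Hcrt, the dopamine and orexin genes of the widest gaps above, and for Nrgn, which had the largest difference below among the genes with the widest gaps. Each runs from 250 bases before to 50 bases after the RefSeq start in the GRCr8 build, on the gene's own strand (minus for all 3), at chr1:207508169-207508468 for Th, chr10:86191475-86191774 for Hcrt and chr8:45452368-45452667 for Nrgn. Capitals mark exact matches to 3 motifs, which do not overlap here. The TATA box was searched as TATAAA on the gene strand only. For the GC box the letters were GGGCGG on both strands. The cyclic AMP response element was searched as TGACGTCA, which reads the same on both strands.
Th: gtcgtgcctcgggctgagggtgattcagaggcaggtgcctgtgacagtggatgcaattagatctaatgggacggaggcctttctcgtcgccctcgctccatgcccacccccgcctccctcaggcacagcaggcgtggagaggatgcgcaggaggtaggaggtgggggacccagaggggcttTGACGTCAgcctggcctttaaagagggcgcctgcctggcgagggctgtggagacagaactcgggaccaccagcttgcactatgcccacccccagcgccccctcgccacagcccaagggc
Hcrt: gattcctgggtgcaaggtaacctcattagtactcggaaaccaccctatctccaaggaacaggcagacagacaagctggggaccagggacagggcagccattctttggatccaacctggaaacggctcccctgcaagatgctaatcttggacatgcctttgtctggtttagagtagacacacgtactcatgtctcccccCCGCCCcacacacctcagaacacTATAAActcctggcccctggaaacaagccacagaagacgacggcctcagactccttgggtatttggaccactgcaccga
Nrgn: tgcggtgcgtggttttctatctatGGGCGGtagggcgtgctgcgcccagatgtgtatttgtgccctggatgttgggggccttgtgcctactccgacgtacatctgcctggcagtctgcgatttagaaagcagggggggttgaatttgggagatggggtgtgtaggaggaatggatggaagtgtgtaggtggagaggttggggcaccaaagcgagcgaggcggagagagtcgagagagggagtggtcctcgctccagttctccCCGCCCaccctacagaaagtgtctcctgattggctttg
The Th window held a cyclic AMP response element whose first base lay at -69 from the start. The Hcrt window held a TATA box at -29 and a GC box at -52. The Nrgn window held GC boxes at -226 and 13, and the window of Itpr1 held none of the 3 motifs. Of 27457 rat promoter windows, 1.91% held the response element, 9.08% the TATA box and 34.9% the GC box. Among 2640 windows of tested genes these shares were 2.69%, 7.46% and 60.6%. The 388 windows of genes with a probe set above the forebrain had 3.35%, 6.44% and 70.1%, and the 133 of genes with a probe set below had 0.752%, 6.77% and 69.9%. For the response element these shares stand for 13 windows above and 1 below, and their difference was not tested. A match says only that the letters are present.

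Secreted and vesicle proteins stood among the widest gaps above. Scg2, a granin packed in dense-core vesicles, had 7641 and 12208 on the VTA cocaine and saline arrays, against 1306, 2357 and 4481 as the lowest, median and highest forebrain values. The VTA arrays were both above the nucleus accumbens, the highest forebrain region for Scg2, and the difference was 3.89-fold (limma adjusted p = 0.000362). Resp18, an endocrine secretory protein of peptide-making cells, had 16381 and 22548 against 3023, 5802 and 7873 and was 3.67-fold higher (adjusted p = 0.000115). The prefrontal cortex was the lowest region for Scg2 and Resp18. Of 11 genes of granins and peptide processing, 3 were higher (Scg2, Resp18 and Cadps, which primes dense-core vesicles), against 6.98% of all genes. None was lower and 8 did not pass, and the list's median log2 difference was 0.03, near that of all genes. Among those that did not pass were the processing enzymes Pcsk2 (-0.09 on the log2 scale) and Cpe (-0.02). The call of Cadps ended when either VTA array was left out (adjusted p = 0.147 without cocaine and 0.0625 without saline), which left 2 higher genes.

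Agt, the precursor of angiotensin, which the brain makes mainly in astrocytes, had 22323 and 23769 in the VTA, against 5578, 6833 and 9637 in the forebrain. The highest forebrain value of Agt, from the nucleus accumbens, was less than that of either VTA array by at least 2.32-fold, and the fitted difference was 3.35-fold (limma adjusted p = 0.000115). Gpx3, a secreted glutathione peroxidase, had 12423 and 15458 against 3633, 4393 and 4919.6, a 3.18-fold difference (adjusted p = 0.000133) that was nearly even across the forebrain, between 1.59 against the nucleus accumbens and 1.74 against the prefrontal cortex on the log2 scale. Itih3, a heavy chain of the inter-alpha-trypsin inhibitor that binds hyaluronan, had 20806 and 19650.2 against 4266, 5701 and 10131 and was 3.41-fold higher (adjusted p = 0.000115). Its distance was shorter to the nucleus accumbens, at 1.14, than to the caudate putamen, at 2.18 on the log2 scale.

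Cell surface, lipid and matrix genes followed. Cd63, a tetraspanin of late endosomes and lysosomes, had 10331 and 10092 in the VTA, against 3922, 5033 and 5362 in the forebrain, and its VTA arrays stood close together at 2.11-fold (limma adjusted p = 0.000909). Fabp5, a carrier of fatty acids, had 12978 and 14082 against 5962, 6943 and 7489 (1.97-fold, adjusted p = 0.000243). Sparc, a matrix protein of glia and vessels, had 7393 and 9216 against 1482, 2527 and 4176 on the probe set with its widest gap (3.17-fold, adjusted p = 0.000701). The probe sets of Sparc disagreed: 2 others were 2.54-fold and 2.18-fold higher, while the brightest had 43466 and 39149 in the VTA against 40786 to 54483 in the forebrain, overlapped and did not pass (log2 difference -0.21). Gnas, the stimulatory G protein subunit whose locus makes several transcripts, was 2.38-fold higher on 1 probe set (12511 and 16741 against 4662 to 7277) and 1.85-fold on another, whereas its 2 brightest overlapped at log2 differences of 0.16 and 0.22 without passing.

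**Figure D2:**
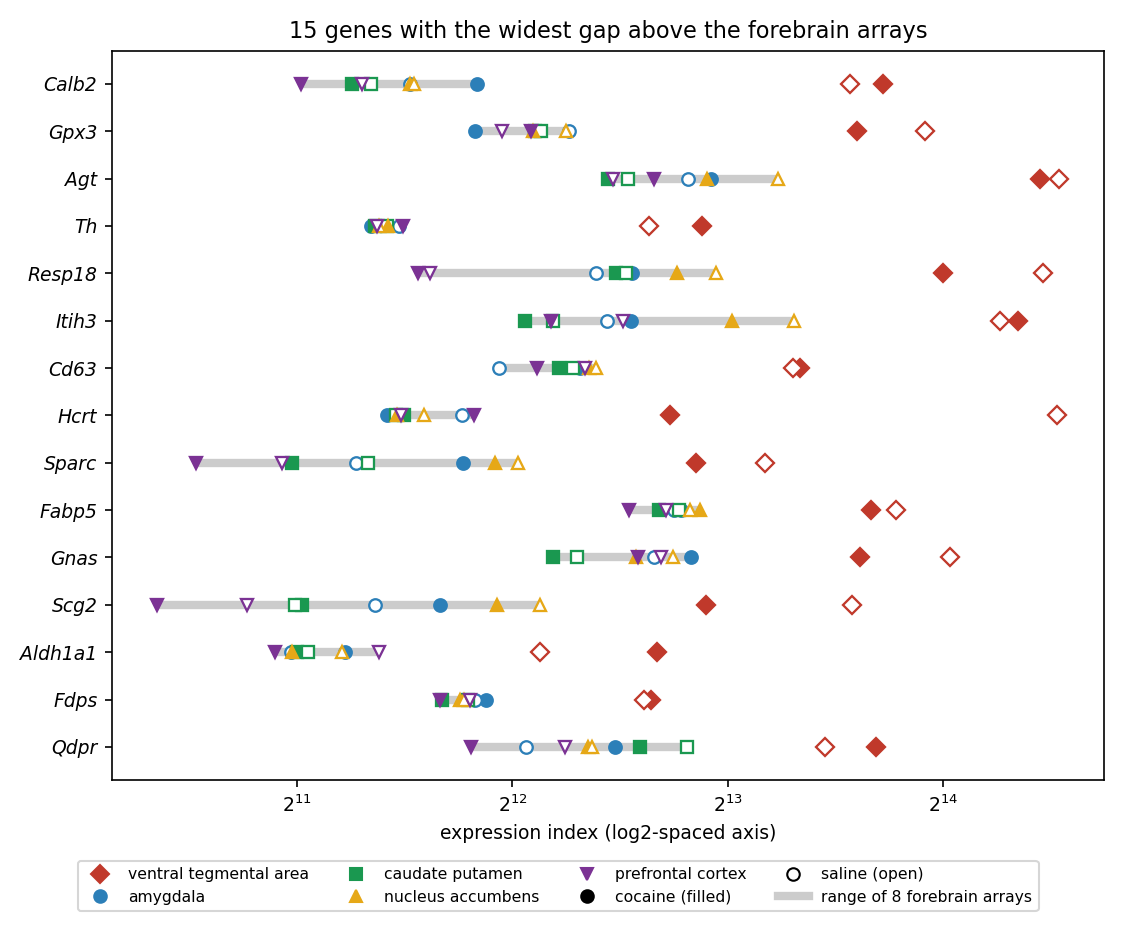
Expression index on a log2-spaced axis for the 15 genes with the widest gap above the forebrain, widest at the top, 1 probe set a gene. Red diamonds are the VTA arrays, other symbols the forebrain regions, filled for cocaine and open for saline, and grey bars span the 8 forebrain arrays. All red diamonds lie right of the bars, and the VTA pair is farthest apart for Hcrt.

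Calcium-binding proteins moved in both directions. Calb2, calretinin, which buffers calcium in subsets of midbrain neurons and interneurons, had 13498 and 12132 in the VTA, against 2077, 2774 and 3658 in the forebrain. It had the widest gap of any probe set with 1 gene symbol, 3.32-fold between the nearest arrays, and was 4.67-fold higher (limma adjusted p = 5.23e-05). A probe set with no gene symbol had a wider gap of 2.10 on the log2 scale. Hpca, hippocalcin, a neuronal calcium sensor, went the other way with 7524 and 8464 against 14237, 17777 and 25411 and was 2.29-fold lower (adjusted p = 0.000115). Vsnl1, visinin-like protein 1, had 10223 and 9975 in the VTA, within the forebrain range of 2739 to 13096 (log2 difference 0.75, adjusted p = 0.00305, a call that ended without either VTA array). Its VTA level was 1.87 above the caudate putamen (adjusted p = 0.000156) and -0.23 relative to the prefrontal cortex (adjusted p = 0.363) on the log2 scale. Of 12 calcium-binding genes, 6 were higher, 2 lower and 4 did not pass, with a median of 0.21. Over all genes, 6.98% were higher and 3.3% lower. The 6 higher genes came to 3 with median scaling and 4 with quantile normalization. They came to 1 without either VTA array, 2 and 3 without the cocaine or saline array of the caudate putamen, 3 and 2 without those of the nucleus accumbens and 4 without the cocaine array of the prefrontal cortex. The 2 lower genes came to 1 without either VTA array, without either caudate putamen array and without either nucleus accumbens array, and to 3 without either amygdala array.

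Enzymes of sterol synthesis were higher in the VTA. Fdps, farnesyl diphosphate synthase, had 6397 and 6254 in the VTA, against 3243, 3528 and 3765 in the forebrain. Its forebrain arrays lay close together, and the VTA pair stood 1.81-fold above them (limma adjusted p = 0.000456). Insig1, which holds back the sterol-sensing machinery, had 6002 and 4809 against 2922, 3026 and 3807 (1.69-fold, adjusted p = 0.0114). Idi1, isopentenyl diphosphate isomerase, had 4777 and 4163 against 2592, 2729 and 3099 (1.60-fold, adjusted p = 0.00172). Both Insig1 and Idi1 kept the VTA pair apart from every forebrain array, with the cocaine value the higher. Squalene epoxidase (Sqle) and methylsterol monooxygenase (Msmo1) were 1.58-fold and 1.60-fold higher. Of 13 sterol genes, 7 were higher, against 6.98% of all genes, none was lower and 6 did not pass. Above all forebrain arrays lay 8, against 12.3% of all genes, and the median log2 difference was 0.49 against 0.02 over all genes. Those that did not pass included Lss (-0.06) and Mvk (-0.10). With 1 VTA array left out the 7 calls came to 0 (without cocaine) and 2 (without saline), although the Fdps probe set given above, which is not the brightest of its 3, kept its call in both cases. The call of Msmo1 also ended without either caudate putamen array and without the saline array of the nucleus accumbens. The list's count stayed at 6 or 7 when any forebrain array was left out and under either scaling.

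Of 29 antioxidant and glutathione genes, 12 were higher in the VTA, against 6.98% of all genes, none was lower and 17 did not pass. Above all forebrain arrays lay 13, against 12.3% of all genes, and the median was 0.19. Prdx1, a peroxiredoxin, had 7799 and 8518 in the VTA, against 3353, 4310.4 and 5461 in the forebrain (1.86-fold, limma adjusted p = 0.000748). Gstp1, a glutathione transferase, had 13083 and 13134 against 5040.4, 7461 and 8902 (1.86-fold, adjusted p = 0.00121). The VTA pair of Gstp1 was almost identical and the caudate putamen was the nearest region for Gstp1 and Prdx1. Sod1, the cytosolic superoxide dismutase, had 21442 and 22422 against 7920.2, 13001 and 15076 (1.88-fold, adjusted p = 0.00152), a call that ended without the VTA cocaine array (adjusted p = 0.0545), and a further Sod1 probe set overlapped at 0.20 on the log2 scale. Gpx3, Prdx6 and Cat were also among the higher genes. Gsto1 (-0.27) and Gpx1 (0.07) did not pass. With quantile normalization, 9 of the 29 genes were higher and 1 was lower. The 12 higher genes came to 4 without the VTA cocaine array and 5 without the VTA saline array.

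Protein quality control showed the same direction. Canx, calnexin, a chaperone of the endoplasmic reticulum, had 15400.5 and 17052 in the VTA, against 6829.9, 9390.1 and 11276 in the forebrain (1.77-fold, limma adjusted p = 0.00147), and its 4 other probe sets were also above all forebrain arrays at 1.48-fold to 2.01-fold. Stip1, which links the Hsp70 and Hsp90 chaperones, had 4670.4 and 4769 against 2487, 2835 and 3537 (1.64-fold, adjusted p = 0.00160). Hspa5 and Pdia3, also of the endoplasmic reticulum, were 1.74-fold and 1.77-fold higher. Of 35 folding genes, 10 were higher, against 6.98% of all genes, 1 (Dnajb5) was lower and 24 did not pass. Above all forebrain arrays lay 17, against 12.3% of all genes, and the median was 0.27. The 10 came to 1 and 3 without the VTA cocaine or saline array, and to 17 without the amygdala saline array. The calls of Hspa5 and Pdia3 ended without either VTA array, and that of Canx without the cocaine array (adjusted p = 0.0527).

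Of 24 proteasome subunits, 8 were higher, against 6.98% of all genes, none was lower and 16 did not pass. Above all forebrain arrays lay 12, against 12.3% of all genes, and the median was 0.30. Psmb5, a catalytic subunit, had 14452 and 15913 in the VTA, against 8319.9, 9958 and 10841 in the forebrain (1.55-fold, limma adjusted p = 0.00182), and it kept its call under all 24 alternatives. Psma6, of the outer ring, had 11238 and 12346 against 5269.5, 7691 and 10343 (1.56-fold, adjusted p = 0.0162), with a call that ended with quantile normalization, without either VTA array, without the caudate putamen cocaine array and without the nucleus accumbens saline array. The 8 higher subunits came to 6 with median scaling and 2 with quantile normalization. They came to 1 without either VTA array, 2 and 3 without the cocaine or saline array of the caudate putamen, and 5 and 2 without those of the nucleus accumbens. Without the amygdala cocaine array the count was 12. Cytosolic ribosomal proteins had 2 of 31 higher (Rps6 and Rpl14), none lower and a median of 0.14, a share near the 6.98% of all genes. The 2 ribosomal genes came to 0 without either VTA array and without either caudate putamen array, to 1 without the nucleus accumbens saline array, to 6 without the amygdala cocaine array and to 4 without the prefrontal cortex saline array. Oxidative phosphorylation had 3 of 25 higher, none lower and a median of 0.17. Its 3 higher genes came to 0 without either VTA array, 1 without the caudate putamen saline array and 9 and 8 without the cocaine or saline array of the amygdala.

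Glial genes were read beside these lists. Of 15 myelin genes, 8 were higher, against 6.98% of all genes, none was lower and 7 did not pass. The median was 0.47, with a summed index of 195762 and 177405 in the VTA against 114727 to 193246 in the forebrain. Cnp, an enzyme of myelin sheaths, had 20964 and 19154 in the VTA and 7792, 12667 and 19899 in the forebrain, so the VTA saline array lay within the forebrain range, which the caudate putamen topped (log2 difference 0.63, limma adjusted p = 0.00948). Qdpr, which recycles tetrahydrobiopterin, the cofactor of Th, and is also abundant in oligodendrocytes, had 13176 and 11196 against 3590.3, 5263 and 7173 (2.34-fold, adjusted p = 0.00188). The calls of Cnp and Qdpr ended without the VTA cocaine array (adjusted p = 0.188 and 0.0652). Mbp, the main myelin basic protein gene, did not pass (0.06). The myelin count came to 0 without the VTA cocaine array and 5 without the VTA saline array, to 5 without the caudate putamen cocaine array and 5 without either nucleus accumbens array. It was also 5 with quantile normalization.

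Among 13 astrocyte genes, 6 were higher, against 6.98% of all genes, none was lower and 7 did not pass. The median was 0.15, with a summed index of 310578 and 298396 in the VTA against 253059 to 297879 in the forebrain. Slc4a4, a bicarbonate cotransporter, had 10077 and 10589 in the VTA, against 4283, 5860.3 and 8238 in the forebrain (1.73-fold, limma adjusted p = 0.000495). Vim, the filament protein vimentin of glia and vessels, had 3137 and 3386 against 872, 1469 and 2305 (2.13-fold, adjusted p = 0.00180), with 1 forebrain value below the floor of 1028 and a call that ended without the VTA cocaine array (adjusted p = 0.0629). Slc4a4 was highest in the nucleus accumbens among forebrain regions, while the top forebrain value of Vim came from the prefrontal cortex saline array. The glutamate transporter gene Slc1a2 (-0.08) and glutamine synthetase, Glul (-0.11), did not pass. The astrocyte count came to 1 and 2 without the VTA cocaine or saline array, to 2 without any 1 array of the caudate putamen or nucleus accumbens and to 3 without the prefrontal cortex cocaine array. Microglial genes had 1 of 12 higher (B2m), endothelial and mural genes 0 of 13 called in either direction and choroid plexus and meningeal genes 1 of 11 higher (Enpp2). The calls of B2m and Enpp2 ended without either VTA array, without the caudate putamen cocaine array and without the nucleus accumbens saline array, and the call of B2m also without the caudate putamen saline array and that of Enpp2 also without the nucleus accumbens cocaine array. The part of glial content in the other results was not tested.

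**Figure D3:**
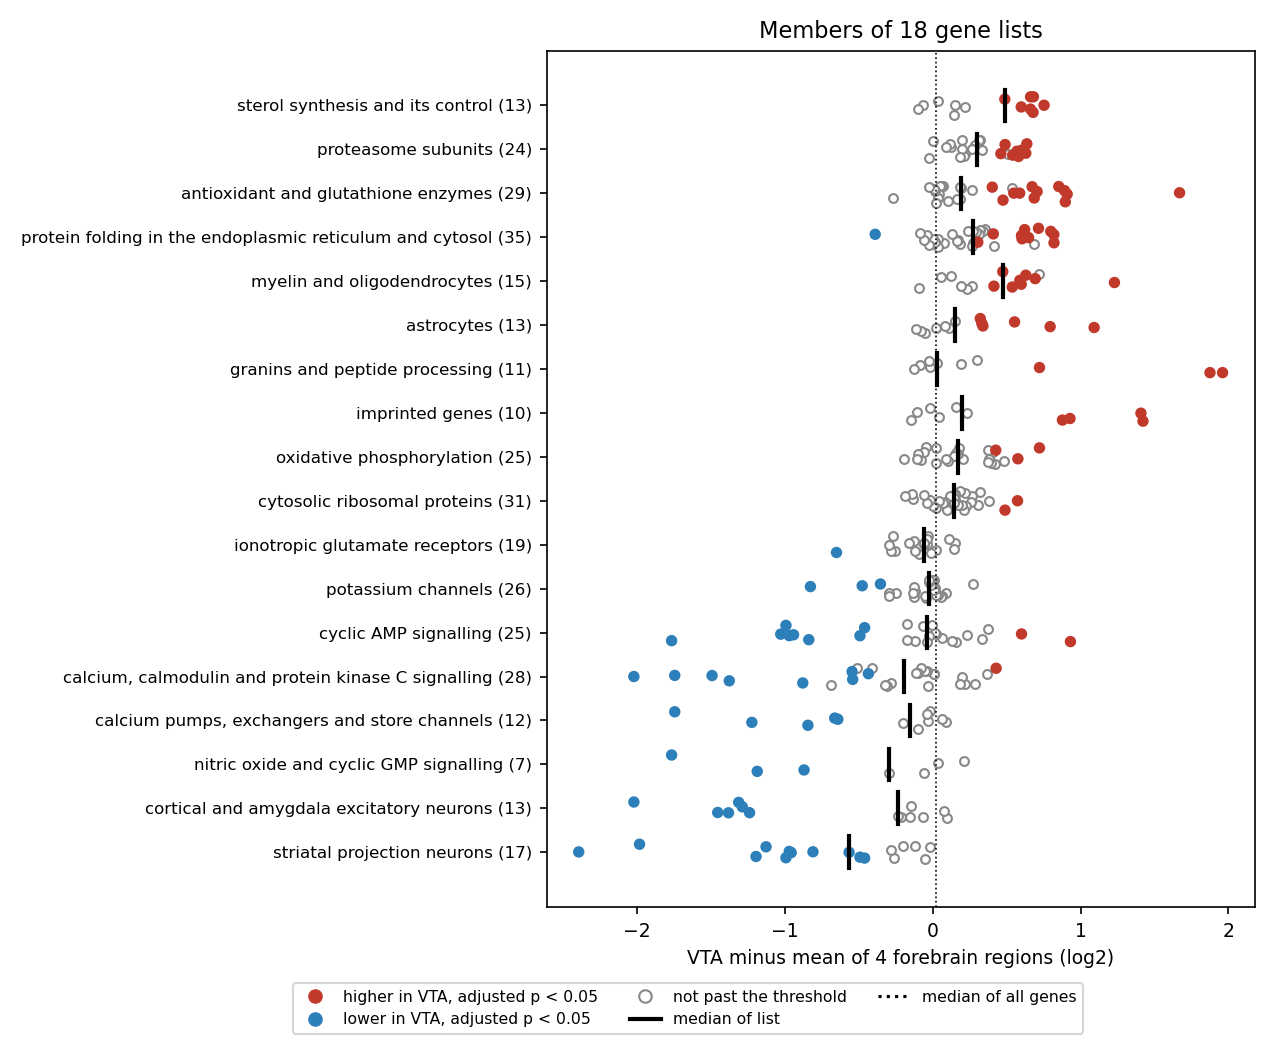
Log2 difference, VTA minus the mean of the 4 forebrain regions, for the measured members of 18 gene lists (number measured in brackets). Red and blue dots passed an adjusted p of 0.05 in limma's fit as higher and lower, open dots did not, thick bars are list medians and the dotted line is the median of all genes. The medians of the sterol (0.49) and myelin (0.47) lists stand right of the dotted line, and that of the striatal projection neuron list (-0.56) stands left of it. The sterol, proteasome, antioxidant, folding, imprinted, ribosomal, calcium pump and cyclic GMP lists were chosen after values were seen.

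Below the forebrain, calcium, calmodulin and protein kinase C signalling held the widest gaps. Nrgn, neurogranin, which binds calmodulin in dendritic spines, had 6768 and 7392 on the VTA cocaine and saline arrays, against 16794, 31408 and 39827 as the lowest, median and highest forebrain values. The nucleus accumbens was its lowest forebrain region and the prefrontal cortex its highest, and the VTA was 4.05-fold lower (limma adjusted p = 3.43e-05). Itpr1, the receptor that releases calcium from stores, had 2172 and 2334 against 5777, 7017 and 11617. The caudate putamen held the top Itpr1 values and the amygdala the nearest, and the VTA was 3.35-fold lower (adjusted p = 3.43e-05). A further Itpr1 probe set was 1.81-fold lower, and another overlapped and did not pass (log2 difference -0.27).

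Prkcb, protein kinase C beta, had 3758 and 3596 in the VTA, against 8002, 9811 and 12925 in the forebrain, and was 2.73-fold lower (limma adjusted p = 0.000133), while its 2 other probe sets were 2.81-fold and 2.43-fold lower. Ppp3ca, the catalytic subunit of calcineurin, had 3564 and 5030.4 against 7700.2, 10949 and 16190.5 (2.59-fold lower, adjusted p = 0.00239), a call that ended without the VTA cocaine array (adjusted p = 0.0716). Rasgrp1, which activates Ras on diacylglycerol and calcium, had 1353 and 1097 against 3044, 3961 and 5667 (3.31-fold lower, adjusted p = 0.000362). Chn1, chimaerin 1, a diacylglycerol-binding brake on Rac, had 6605 and 7522 against 15426, 16682 and 22611 (2.52-fold lower, adjusted p = 0.000115). For Prkcb, Rasgrp1 and Chn1 the highest VTA value lay at least 2.05-fold under the lowest forebrain value. Of 28 genes of this signalling list, 8 were lower, against 3.3% of all genes, 1 (Plcb4) was higher and 19 did not pass. Below all forebrain arrays lay 10, against 4.82% of all genes, and the median was -0.20. Other isoforms did not pass, among them Prkcd (0.01) and Camk2d (0.22). The higher Plcb4 lost its call without either VTA array, either caudate putamen array or either nucleus accumbens array, and 3 genes were higher without the cocaine array of the amygdala and 2 without the saline array of the amygdala or prefrontal cortex. The 8 lower genes came to 5 without either VTA array and to 12 and 13 without the cocaine or saline array of the amygdala.

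Calcium pumps and exchangers were among the lower genes. Atp2b1, a plasma membrane calcium pump, had 3130.4 and 2832 in the VTA, against 5664, 6247 and 11167 in the forebrain, with the caudate putamen highest (2.33-fold lower, limma adjusted p = 0.000228). Slc24a2, a potassium-dependent sodium-calcium exchanger, had 2388 and 2651 against 2814, 4455 and 7633 (1.79-fold lower, adjusted p = 0.0122), and its gap was narrow and its call ended without either VTA array (adjusted p = 0.174 without cocaine and 0.134 without saline). Of 12 genes of pumps, exchangers and store channels, 5 were lower, against 3.3% of all genes. None was higher and 7 did not pass, with a median of -0.15. The 5 came to 2 without either VTA array, to 3 without the caudate putamen cocaine array and to 3 without the nucleus accumbens saline array. The store pump gene Atp2a2 was 1 of the 5, with a call that ended without either VTA array, the caudate putamen cocaine array or the nucleus accumbens saline array, and its other probe set overlapped (log2 difference -0.02).

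Cyclic nucleotide enzymes also lay below. Pde2a, a phosphodiesterase that cyclic GMP stimulates, had 2079 and 2472 in the VTA, against 4889.5, 7938 and 9644 in the forebrain. Even the prefrontal cortex, lowest of the forebrain regions for Pde2a, stood above the VTA by 1.98-fold at the nearest arrays, and the fitted difference was 3.40-fold lower (limma adjusted p = 0.000156). Gucy1a1 and Gucy1b1, the subunits of the guanylyl cyclase that nitric oxide activates, had 1934 and 2225 against 2599, 5289 and 6629, and 3494 and 4429 against 4772, 7175 and 9865. They were 2.27-fold and 1.83-fold lower (adjusted p = 0.000243 and 0.00479), and the call of Gucy1b1 ended without the VTA cocaine array (adjusted p = 0.120). With arrays in 2 classes the calls of Gucy1a1 and Gucy1b1 ended (limma adjusted p = 0.0793 and 0.0855). Of 7 nitric oxide and cyclic GMP genes, 4 lay below all forebrain arrays and 1 above, against 4.82% and 12.3% of all genes. In the fit 3 were lower, against 3.3% of all genes, and 4 did not pass. Nos1, the neuronal nitric oxide synthase, was among those that did not pass, at -0.06. The 3 came to 2 without the VTA cocaine array.

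The cyclic AMP list had 8 of 25 genes lower, 2 higher and 15 not past the threshold, and 3 lay below all forebrain arrays. Over all genes, 3.3% were lower, 6.98% higher and 4.82% below all forebrain arrays. Ppp1r1a, inhibitor 1 of protein phosphatase 1, had 3258 and 3995 in the VTA, against 5724, 6588 and 11754 in the forebrain (2.04-fold lower, limma adjusted p = 0.000852). Rgs9, which shortens G protein signalling in striatal neurons, had 2742 and 2617 against 2087, 5273 and 13115 and overlapped. Its VTA level was -2.29 relative to the caudate putamen (adjusted p = 8.41e-05) and 0.18 relative to the prefrontal cortex (adjusted p = 0.563) on the log2 scale. Prkaca, the catalytic subunit of protein kinase A, was among the higher genes, at 0.93. When arrays were put in only 2 classes, so that differences between forebrain regions entered the spread, 1 gene of this list was lower and 1 higher. The 2 higher genes came to 0 without either VTA array, and the 8 lower to 5 without the VTA saline array. The higher count was 5 and 4 without the cocaine or saline array of the amygdala, and 1 without the caudate putamen cocaine, nucleus accumbens saline or prefrontal cortex cocaine array.

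Homer1, a postsynaptic scaffold of metabotropic glutamate receptors, had 1437 and 1380.2 in the VTA, against 2884, 3512 and 4830.1 in the forebrain (2.68-fold lower, limma adjusted p = 0.000243), and its 3 other probe sets were also below, at 2.47-fold to 2.87-fold lower. Sv2b, a synaptic vesicle protein, had 4002 and 3480 against 5985, 10269 and 16481 (2.60-fold lower, adjusted p = 0.000243), and Cplx2, complexin 2, a regulator of vesicle fusion, had 3100.4 and 3403 against 6373, 7620.4 and 8280.2 (2.27-fold lower, adjusted p = 0.000243). The Sv2b range was wide because the nucleus accumbens and caudate putamen had less than the amygdala and prefrontal cortex, whereas Cplx2 varied little over the forebrain. Of 30 genes of synaptic vesicles and release, 3 were lower, 1 was higher and 26 did not pass, with a median of -0.06. The 3 lower genes came to 5 and 7 without the cocaine or saline array of the amygdala and to 5 with quantile normalization. Gria2, an AMPA receptor subunit, had 4109 and 4774 against 5815, 6994 and 7767 (1.57-fold lower, adjusted p = 0.00174), and its call ended without the VTA cocaine array (adjusted p = 0.0569). Gria2 was the only called gene of 19 ionotropic glutamate receptor genes, whose median was -0.06 and of which 3 were lower without the amygdala saline array. Of 13 genes of cortical and amygdala excitatory neurons, 6 were lower, against 3.3% of all genes, none was higher and 7 did not pass. Below all forebrain arrays lay 7, against 4.82% of all genes, and the median was -0.23. The 6 came to 4 without the VTA saline array.

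Further genes with wide gaps below have other roles. Gda, guanine deaminase, which also binds a postsynaptic scaffold, had 2244 and 3963 in the VTA, against 6752, 10454 and 14603 in the forebrain (3.31-fold lower, limma adjusted p = 0.000362), and its VTA arrays differed more than those of Nrgn or Itpr1. Ctxn1, cortexin 1, a neuronal membrane protein, had 8738 and 10541 against 20360.4, 23590.2 and 28859 (2.49-fold lower, adjusted p = 0.000115). Gas7, linked to neurite shape, had 3674 and 3806 against 7372, 8051 and 8969.8 (2.17-fold lower, adjusted p = 0.000325), and its other probe sets were 1.35-fold and 1.18-fold lower, the second without passing. Forebrain values of Ctxn1 and Gas7 varied little between regions on these probe sets. Their place below all forebrain arrays was set by the way they were chosen. Egr1, an immediate early transcription factor, had 934 and 1124 against 2018, 2606 and 4367 (2.53-fold lower, adjusted p = 0.00983), and Kcnv1, a silent potassium channel subunit, had 974 and 1286 against 2164, 2741 and 5067 (2.54-fold lower, adjusted p = 0.00212). For both, the VTA cocaine value lay below the floor of 1028 and was raised to it. The Egr1 call ended without either VTA array (adjusted p = 0.148 without cocaine and 0.117 without saline), and the Kcnv1 call without the cocaine array (adjusted p = 0.0689). A brighter Egr1 probe set was 2.74-fold lower and also lost its call without either VTA array, and 2 more did not pass.

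**Figure D4:**
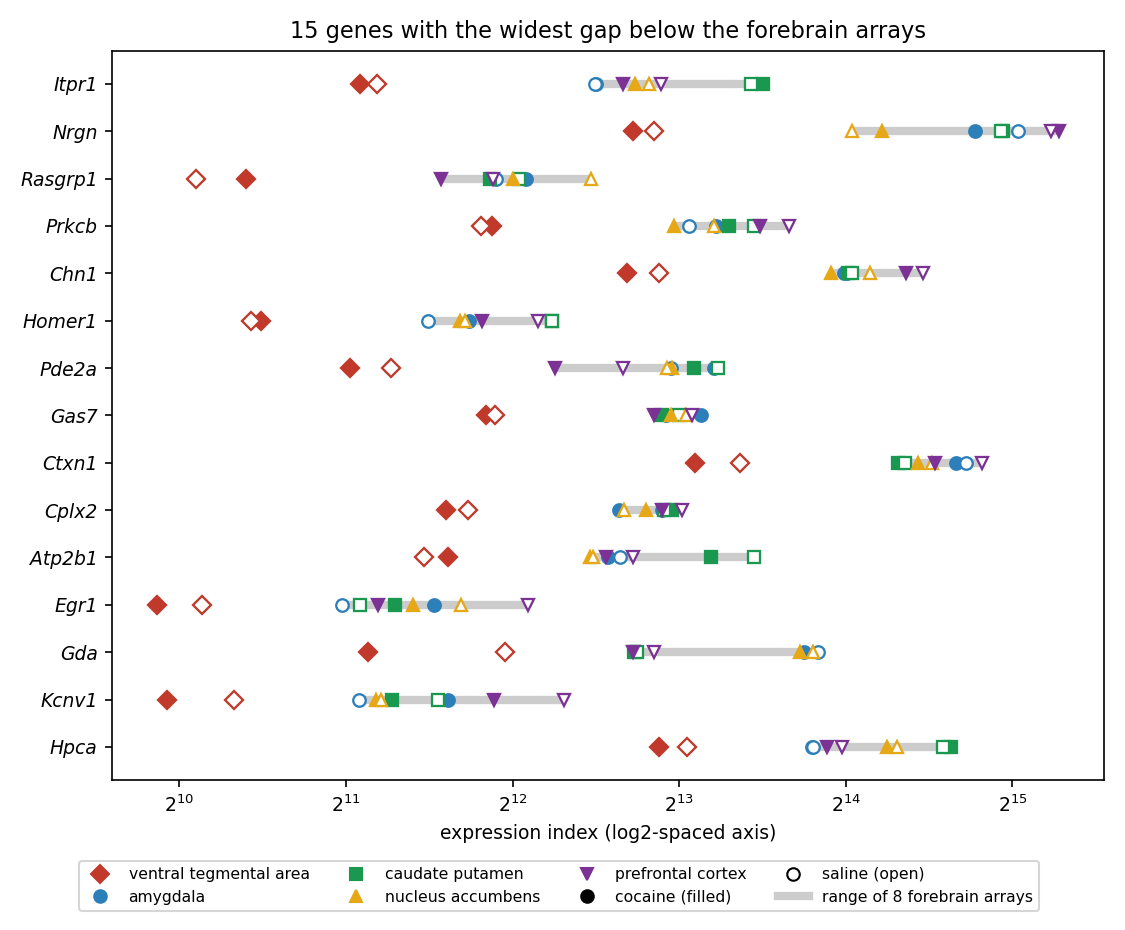
Expression index on a log2-spaced axis for the 15 genes with the widest gap below the forebrain, widest at the top, 1 probe set a gene. Red diamonds are the VTA arrays, other symbols the forebrain regions, filled for cocaine and open for saline, and grey bars span the 8 forebrain arrays. All red diamonds lie left of the bars, and the order of the forebrain regions differs from gene to gene.

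Of 17 striatal projection neuron genes, 11 were lower, against 3.3% of all genes, none was higher and 6 did not pass, with a median of -0.56. Below all forebrain arrays lay 2 (Hpca and Arpp21), against 4.82% of all genes. Drd1, a dopamine receptor found on striatal neurons of the direct pathway, had 846 and 1049 in the VTA, against 698, 5697 and 11001 in the forebrain, where the lowest value came from the prefrontal cortex. Its VTA level was -3.40 relative to the caudate putamen (limma adjusted p = 6.83e-06) and -0.02 relative to the prefrontal cortex (adjusted p = 0.955) on the log2 scale. The VTA cocaine and prefrontal cortex cocaine values of Drd1 were raised to the floor, which limits both differences. Another Drd1 probe set with no value under the floor gave -1.66 (adjusted p = 0.000264) and 0.03 (adjusted p = 0.955). Penk, the enkephalin precursor, had 5545 and 5894 in the VTA, above the prefrontal cortex by 1.22 (adjusted p = 0.000356) and below the caudate putamen, at -2.30 (adjusted p = 2.90e-05). Arpp21, a phosphoprotein regulated by cyclic AMP, was 1 of the 2 below all arrays, at 578 and 494 against 1648, 5017 and 16092, with both VTA values under the floor. With arrays in 2 classes, 1 of the 17 genes was lower.

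Treatment was tested as a modifier of the VTA difference. None of 4894 probe sets passed in limma's interaction of VTA with treatment (96 had an unadjusted p under 0.05, and the smallest adjusted p was 0.773), with 1 array per treatment and region. With saline arrays alone and with cocaine arrays alone, the direction of all 104 probe sets chosen by the naming rule was the same, but for 27 of them in each case the size moved by more than the SD of the VTA pair. The direction was fixed in advance where both VTA arrays lay beyond all forebrain arrays, so it is no separate support. The saline and cocaine differences of a probe set average to its main difference, so the cases are not independent. The log2 difference of Calb2 was 2.31 on the cocaine and 2.14 on the saline arrays, and that of Nrgn -2.08 and -1.96. For Scg2 the values were 1.66 on the cocaine and 2.26 on the saline arrays, and for Gda -2.10 and -1.36. Hcrt had 1.18 on the cocaine and 2.95 on the saline arrays, and Cck, the cholecystokinin precursor, -0.74 and -1.74. These pairs of values have no test of their own. Of the 104, 32 kept their call under all 24 alternatives, and 2 more (Ache and Ndn) under the 23 that tested them. The 32 included Calb2, Th, Gpx3, Agt, Itih3, Cd63, Fabp5, Fdps, Prdx1 and Stip1 above and Nrgn, Itpr1, Prkcb, Rasgrp1, Chn1, Homer1, Pde2a, Cplx2, Ctxn1 and Hpca below.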

How the data were processed

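Total RNA of rat brain regions was measured on 1-colour oligonucleotide arrays, 1 array per region and treatment. The deposited values are intensities that the authors computed with dChip as an expression index, per the labels. The labels name no dChip version, model or scaling. Controls (59 of 8799 probe sets) were left out, zeros were taken as missing, and a floor was set at the 20th percentile of the nonzero values (1028), below which values took the floor's value before log2. A filter on mean index kept the top 60% (5244 probe sets). Those with enough values (5232) were fitted with limma 3.58.1 in R 4.3.3, with 5 region means, treatment and an intensity trend (4 residual degrees of freedom). The VTA was contrasted with the mean of the 4 forebrain regions, with Benjamini-Hochberg adjustment over all. Folds compare geometric means. The steps were tested on simulated data. The number of arrays limits the precision.

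Names came from 7006 probe sets with 1 symbol (308 had several, 1426 none). All 6985 of these found in the RefSeq table of GRCr8 stood unchanged. A gene in a list was its probe set with the highest mean and a value on all 10 arrays. The named genes were the 15 with the widest gap on each side, up to 4 called members of each list with the largest change, and the region's markers. Members and lists were chosen with earlier results of these data known. The lists of proteasome, ribosomal, sterol, antioxidant, folding, cyclic GMP, calcium pump and imprinted genes, the interaction, the fits within a treatment and the promoter genes and motifs were chosen after values were seen. Genes given as not passing were also chosen after their values were seen. Alternatives covered the scaling, zeros, the floor, the filter, the design, single arrays and regions.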

Additional observations from a re-analysis of the deposited data

How the results depend on the processing

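None of the 104 named probe sets changed direction under the alternatives that tested them (9 were not tested in the upper 40% by mean index). All 104 were calls of the main fit, and those with the widest gaps had both VTA arrays beyond the forebrain. Their choice thus made a change of direction unlikely, and its absence is no support. The medians of the dopamine neuron and granin lists, close to 0, reached -0.01 and -0.06. The count past the threshold (579) was 464 with median scaling, 418 with quantile normalization, 459 with zeros raised to the floor, 519 in the upper 40% by mean index, 637 without the treatment term, 350 with all probe sets tested (231 higher) and 304 with 2 classes of arrays (211 higher, 93 lower). Quantile normalization gave 228 higher and 190 lower calls, with 464 probe sets above and 405 below all forebrain arrays. Leaving out both arrays of a region gave 880 (662 higher) for the amygdala, 355 (232 higher) for the caudate putamen, 264 higher for the nucleus accumbens and 506 for the prefrontal cortex. Leaving out 1 array at a time gave 118 to 946 calls, 51 to 716 higher and 67 to 239 lower, with 656 to 1004 above and 245 to 602 below. The causes of these shifts were not tested. Calls with a fold of at least 2 stayed between 68 and 96. Of 104 named probe sets, 4 lost their call with median scaling, 13 with quantile normalization, 38 with 2 classes of arrays and 56 or 44 without the VTA cocaine or saline array. With all probe sets tested, without the filter on mean index, 38 of the 104 lost their call. No paired analysis was possible because the replicate number stands for the treatment, which is already a term of the fit. Signals near the floor of 1028 limit what can be said of dim genes such as Arpp21 and Drd1.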

Other observations

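Imprinted genes, expressed from 1 parental copy and known for roles in the hypothalamus and growth, were not described above. Nnat, neuronatin, had an index of 36142 and 35859.9 in the VTA, against 5310.3, 15384 and 25926 as the lowest, median and highest forebrain values, a 2.68-fold difference (limma adjusted p = 0.000243). With arrays in 2 classes the Nnat call ended (limma adjusted p = 0.278). Ndn, necdin, had 3756 and 4736 against 1018, 1512 and 2527 (2.65-fold, adjusted p = 0.00142), with 1 forebrain value raised to the floor. Both genes had their top forebrain value in the nucleus accumbens and their lowest in the prefrontal cortex. Of 10 measured imprinted genes, 4 were higher (Nnat, Ndn, Rasgrf1 and Grb10), against 6.98% of all genes. None was lower and 6 did not pass, among them Igf2r (0.05) and Ube3a (-0.14), and the median log2 difference was 0.20. The count was 3 without the VTA cocaine array, 2 without the VTA saline array and 2 with 2 classes of arrays.

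Maoa, monoamine oxidase A, had 5949 and 6856 in the VTA, against 3468, 4218 and 4744 in the forebrain (1.52-fold, limma adjusted p = 0.0113), a call that ended without the VTA cocaine array (adjusted p = 0.103) and without the VTA saline array (adjusted p = 0.169). Ache, acetylcholinesterase, was 1.71-fold higher (adjusted p = 0.000982), while its other probe sets overlapped. Npy, neuropeptide Y, had 2244 and 3256 against 4431, 5040 and 5834 and was 1.90-fold lower (adjusted p = 0.00410), a call that ended without the VTA cocaine array (adjusted p = 0.0747).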
